A study of Mus musculus with 6 samples.

Results

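The genes described here are 34 cytokine receptor, Janus kinase (JAK) and STAT genes, with the cytokine gene Il15, and the question was which of them lay at binding sites of Ikaros in mouse natural killer (NK) cells. They were picked by gene name, and their peaks are the rows of 3 peak lists in which the authors' gene column gives one of these names. Of the 34 genes, 9 were named at 1 or more peaks, at 16 of the 4111 peaks in the lists, out of 2714 gene names of every kind.

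Ikaros is a zinc finger transcription factor encoded by Ikzf1, and the series measured its binding by chromatin immunoprecipitation with sequencing (ChIP-seq). Splenic NK cells were grown in culture with IL-15 at 50 ng/ml, fixed in 2% formaldehyde, and precipitated with 2 µg of an antibody against Ikaros. The series held 3 wild type (WT) samples and 3 samples of Ikzf1 KO NK cells, in which the gene was deleted conditionally through NKp46, the receptor that marks NK cells. The peak lists are those of the WT samples, 1 list per library, and the KO samples were not analysed here. Whether the KO libraries served as the control when peaks were called is not given in the sources used here. WT replicate 1 had 685 peaks, replicate 2 had 2084 and replicate 3 had 1342, so the first list was the shortest. Replicate 3 is the sample titled rep 3, whose description and peak names carry the number 4. Nothing in the labels says whether different mice or cultures gave the libraries, and differences between lists may be technical. Peaks are not expression, so the identity of the cells was not read from them: by name, 2 of 9 NK marker genes (Klrb1c and Gzmb) had a peak, as did 0 of 6 T cell, 0 of 5 B cell and 0 of 5 myeloid markers.

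Most cytokine receptors described here have no enzyme of their own. A cytokine brings receptor chains together, the JAKs bound to those chains phosphorylate them, and STAT proteins dock, become phosphorylated and move to the nucleus as transcription factors. NK cells depend on IL-15, which signals through Il2rb and the common gamma chain Il2rg with JAK1, JAK3 and STAT5, while IL-12 and IL-18 drive interferon-gamma release; the IL-18 and IL-33 receptors signal through MyD88 and not through JAKs. TGF-beta works through receptor kinases of another family and restrains NK cells.

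Each peak carries a fold enrichment, the authors' ratio of signal to local background, and a −log10 q, where a larger value means stronger evidence for the peak. Both belong to their own list. A percentile below is the rank of a peak's fold enrichment within its list, 100 being the strongest peak. Peaks of different lists that share at least 1 base were joined into a region. Positions are in the mouse build mm10, as deposited.

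Tgfbr1 was the 1 gene of the 34 with a region in all lists, and Il2ra, Il4ra, Il21r and Ifngr1 had a region in exactly 2. Il12rb1, Ifnar1, Jak1 and Tyk2 had a peak in 1 list, and the remaining 25 genes were named at none. Of all 21900 protein-coding RefSeq genes, 9.54% were named in any list, against 26.5% of the 34 genes (95% Clopper-Pearson interval 12.9 to 44.4, counting error over genes only). A region in 2 or more lists was found for 4.44% of all protein-coding genes and for 5 of the 34 (14.7%, interval 4.95 to 31.1). In all lists the shares were 2.02% of all genes and 1 of the 34, or 2.94%, so there the share of these genes was near the background. The difference was not seen at a −log10 q of 5 or more. There, 1 of the 34 genes (2.94%, interval 0.0744 to 15.3) was named in any list, against 3.77% of all protein-coding genes. With 1 gene and so wide an interval, this cannot tell an excess from none. With each list cut to its 685 strongest peaks by fold enrichment, which left replicate 1 whole, the shares were 11.8% (3.3 to 27.5) and 4.80%. The interval held the background. Silent genes are part of that background, and the part that gene activity, open chromatin or gene length plays in the difference was not tested. The genes were also chosen with earlier results of these data known, so these shares and intervals describe the list and are not a test.

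**Figure D1:**
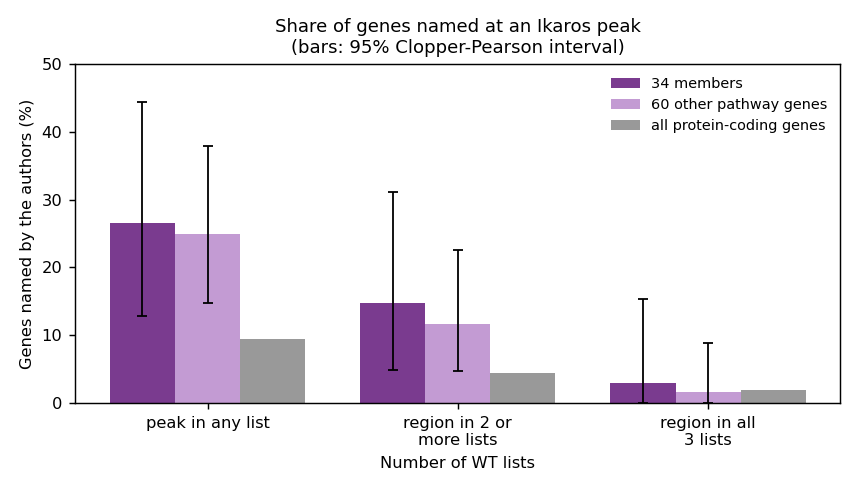
Share of genes (%, vertical axis) named by the authors at a peak in any list, or at a region in 2 or more or all 3 WT lists, for the 34 cytokine receptor, JAK and STAT genes, 60 other genes of the pathway and all protein-coding genes; bars are 95% Clopper-Pearson intervals of counting error. Both gene lists stand above all protein-coding genes for any list, at 26.5% and 25.0% against 9.54%, and the intervals are wide. Both lists were chosen with earlier results of these data known, so the intervals are not a test.

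The number of genes found depended on the list. Replicate 1 named 2 of the 34 genes, Il2ra and Tgfbr1, where 2.71% of all protein-coding genes were named. Replicate 2 named 7 of them against 7.79% of all genes, and replicate 3 named 6 against 5.52%. The shares of the 34 genes were 5.88% (interval 0.72 to 19.7), 20.6% (8.7 to 37.9) and 17.6% (6.76 to 34.5) in replicates 1, 2 and 3, so in replicate 1, with 2 genes, the interval held the background.

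By role, the 9 named genes were receptor genes and JAK genes, but each role holds few genes. Of all protein-coding genes, 9.54% were named in any list. Among the common gamma chain receptors and their partners, 3 of 7 genes were named, all in 2 lists. Of these, Il4ra and Il21r are neighbours, and their regions all lay in the 23.8 kb between them. Of the interferon receptors 2 of 4 were named, of the TGF-beta receptors 1 of 3, and of the IL-12, IL-18 and IL-33 receptors 1 of 5. Of the JAKs 2 of 4 were named, each in 1 list. None of the 4 IL-10 and IL-6 receptor genes, none of the 6 STAT genes and not Il15 itself had a peak by name. The intervals for 0 of 4 and 0 of 6 ran from 0 to 60.2% and from 0 to 45.9%, so both held the background share. Those for 2 of 4 (6.76 to 93.2%), 1 of 3 (0.84 to 90.6%) and 1 of 5 (0.505 to 71.6%) held it too. The interval for 3 of 7 (9.9 to 81.6%) began just above it. Within the IL-15 pathway, Il15ra, Il2rb, Il2rg, Jak3, Stat5a and Stat5b were named in no list, and Jak1 in 1. A gene named in no list may still have a listed peak nearby that carries another name, as described further on for Stat2 and Il2rb. Weak binding below the authors' threshold cannot be told apart from none.

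**Figure D2:**
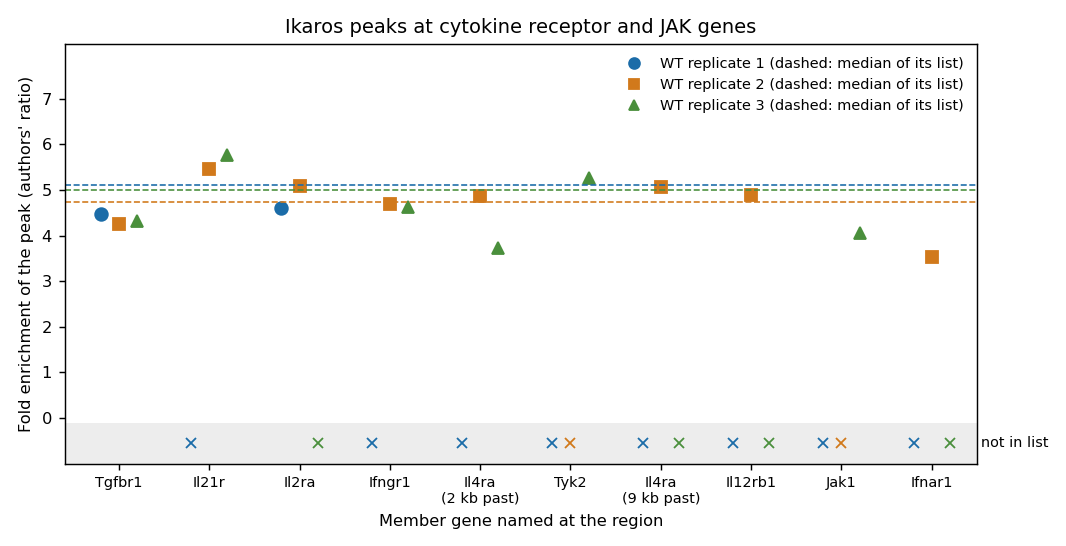
Fold enrichment (authors' ratio, vertical axis) of each peak in WT replicates 1, 2 and 3 at the 10 regions that name 1 of the 9 genes; dashed lines are the median of each whole list, and crosses mark lists without that peak. Values lie between 3.54 and 5.77, near the list medians, and Tgfbr1 is the 1 gene with a point from every list.

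Tgfbr1 encodes the type I TGF-beta receptor kinase, which phosphorylates SMAD proteins when TGF-beta binds. Its region (ENSMUSG00000007613) lay on chromosome 4, 47352983 to 47353852, across the first RefSeq start of the gene on the plus strand. Fold enrichment was 4.46, 4.25 and 4.32 in replicates 1, 2 and 3, with −log10 q of 2.78, 3.24 and 2.97. These are low ranks, at percentiles of 24.2, 30.6 and 26.3, and the 3 values lie close together. The peaks were wide for their lists, at 670, 833 and 870 bp against list medians of 281, 292.5 and 294 bp. They share 670 bases, ending 625 to 630 bp downstream of the start, whereas the upstream edges were 44, 202 and 239 bp before it. A RefSeq long noncoding gene, Gm32435, covers the same stretch, and ChIP-seq does not tell which gene such a site serves.

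Ifngr1 encodes the ligand-binding chain of the interferon-gamma receptor. Its region (ENSMUSG00000020009) on chromosome 10, 19591525 to 19591822, lay just upstream of the gene and did not touch the start. Fold enrichment was 4.70 in replicate 2 and 4.62 in replicate 3, at percentiles of 48.5 and 36.5, and no peak was listed in replicate 1. Both peaks were narrow, 201 and 207 bp, shared 110 bases, and ended 224 and 127 bp before the start.

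Tgfbr1 and Ifngr1 are the members whose promoters lay at a region in 2 or more lists, so the 250 bases before their starts are shown, from RefSeq on GRCm38.p6 (the same build as mm10). Each reads 5′ to 3′ on the plus strand, and capitals mark the bases covered by a peak of at least 1 list. The stretches are chr4:47352972-47353221 for Tgfbr1 and chr10:19591699-19591948 for Ifngr1.
Tgfbr1: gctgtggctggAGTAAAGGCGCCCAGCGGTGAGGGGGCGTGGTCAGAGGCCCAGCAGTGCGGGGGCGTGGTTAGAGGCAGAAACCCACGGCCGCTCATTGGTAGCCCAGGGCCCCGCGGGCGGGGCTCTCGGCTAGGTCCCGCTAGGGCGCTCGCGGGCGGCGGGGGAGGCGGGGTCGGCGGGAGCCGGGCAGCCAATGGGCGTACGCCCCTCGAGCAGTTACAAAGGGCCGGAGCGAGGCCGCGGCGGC
Ifngr1: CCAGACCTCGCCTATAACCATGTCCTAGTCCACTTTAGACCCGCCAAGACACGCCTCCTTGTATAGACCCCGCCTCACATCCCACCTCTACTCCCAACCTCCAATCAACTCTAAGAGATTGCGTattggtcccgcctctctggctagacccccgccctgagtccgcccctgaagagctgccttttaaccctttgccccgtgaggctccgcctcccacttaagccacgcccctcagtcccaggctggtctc
Peaks of at least 1 list covered 239 of the 250 bases at Tgfbr1 and 124 of 250 at Ifngr1. By list, in replicates 1, 2 and 3, the covered bases were 44, 202 and 239 at Tgfbr1. At Ifngr1 they were 0, 27 and 124, so most of the capitals there rest on replicate 3 alone. The Tgfbr1 stretch is rich in G and C, at 74.8%, against 59.2% at Ifngr1 and a median of 55.6% over 21238 promoters of protein-coding genes. The median was 65.6% over the 582 promoters that touch a region in 2 or more lists.

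The promoter windows of the members with a peak within 1 kb of a start were searched on both strands for short motifs, over 300 bases from 250 before to 50 after the start. These windows did not hold the whole peaks, which ran to 625 to 630 bp past the start at Tgfbr1, 421 bp at Ifnar1 and 164 bp at Tyk2. Peaks began 424 and 333 bp before the start at Ifngr1 and 335 bp before it at Stat2. The parts of peaks outside the windows were not searched, so a motif missing from a window may still lie under the peak. GGGAA, the core bound by Ikaros zinc fingers, was in the window of Stat2 (1 match) and not in those of Tgfbr1, Ifngr1, Ifnar1 and Tyk2. It is a common word, present in 63.0% of all promoter windows and in 68.6% of those touching a region in 2 or more lists. GGGCGG, the GC box, was in the windows of all 5 genes, with 4 matches at Ifnar1 and 2 at each of the others. That motif was in 46.2% of all windows and in 84.0% of those touching a region in 2 or more lists. GGAAG, the core bound by ETS factors, which can overlap GGGAA, had 4 matches at Ifnar1, 1 each at Tgfbr1 and Tyk2 and 0 at Ifngr1 and Stat2, and was in 72.4% of all windows. CCAAT was found at Tgfbr1, Ifngr1 and Stat2 with 2 matches each and at Tyk2 with 3, against 38.2% of all windows. The AP-1 motif TGANTCA was in 0 of the 5 windows and in 6.99% of all. A match is a run of letters, not a measured site.

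**Figure D3:**
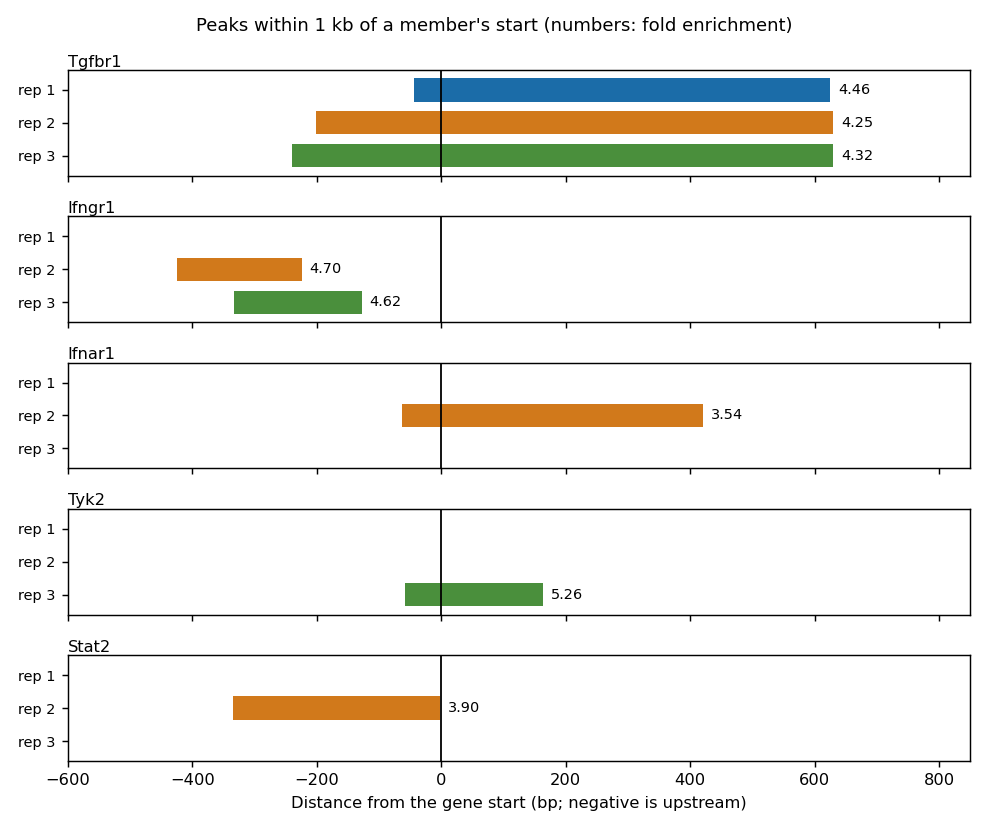
Peaks (bars) within 1 kb of the start of Tgfbr1, Ifngr1, Ifnar1, Tyk2 and Stat2 in WT replicates 1, 2 and 3, by distance from the start (bp, horizontal axis, negative upstream), with the fold enrichment printed beside each bar. Tgfbr1 peaks run across the start in every list, Ifngr1 peaks end 127 and 224 bp before it, and the other genes have 1 peak each.

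Il2ra, Il4ra and Il21r encode receptor chains that work with the common gamma chain, and their sites lay away from gene starts. Il2ra encodes the alpha chain that gives the IL-2 receptor its high affinity. Its region (ENSMUSG00000026770), on chromosome 2, 11653403 to 11653660, lay inside the gene, 10.6 kb downstream of the start. Fold enrichment was 4.60 in replicate 1 and 5.08 in replicate 2, at percentiles of 29.5 and 60.7, and replicate 3 had no peak there. It was the 1 region of the 34 genes found in replicate 1 and absent from replicate 3. Whether it falls in an exon or an intron was not assigned. Il15ra, the next receptor gene on that chromosome, begins at 11705172 and had no peak within 50 kb in any list. The Il2ra region lay just past that limit.

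Il4ra, the alpha chain of the IL-4 and IL-13 receptors, and Il21r, the IL-21 receptor, are neighbours on chromosome 7 and read in the same direction. The 23.8 kb between them held 3 regions, 2 named for Il4ra (ENSMUSG00000030748) and 1 for Il21r (ENSMUSG00000030745) by distance. The first, at 125581191 to 125581606, began 1717 bp past the end of Il4ra. Fold enrichment was 4.87 in replicate 2 and 3.73 in replicate 3, at percentiles of 54.6 and 5.44, so its rank differed widely between the lists. The second, at 125588865 to 125589071, was in replicate 2 alone, with a fold enrichment of 5.07 at a percentile of 60.4.

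The third region, at 125593991 to 125594231, lay about 9.2 kb upstream of the start of Il21r. Its fold enrichments were 5.46 in replicate 2 and 5.77 in replicate 3, at percentiles of 70.8 and 69.2, and it was absent from replicate 1. These were the highest percentiles of any peak named for the 34 genes in either list. Its −log10 q values of 5.25 and 5.77 were the 2 of the 16 that reached 5, a level that 39.3% of all peaks reached. Since it is named by distance, the gene it acts on is not known from the lists. The Il21r gene and its start held no peak.

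**Figure D4:**
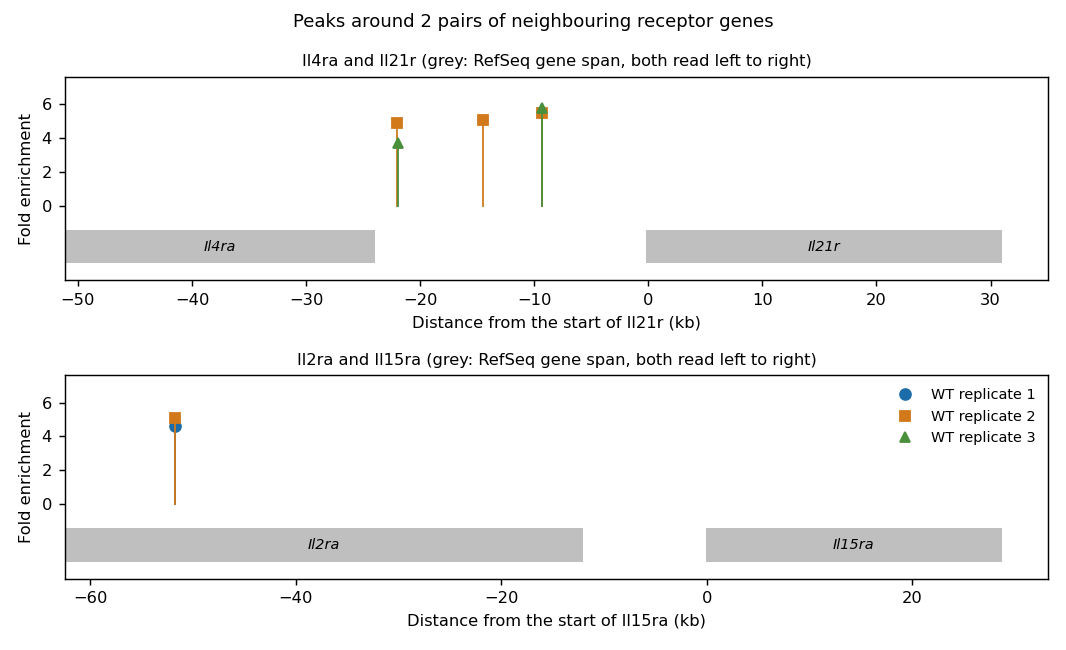
Peaks (points, height is fold enrichment) in WT replicates 1, 2 and 3 around Il4ra and Il21r (upper panel) and Il2ra and Il15ra (lower panel), by distance in kb from the start of the right-hand gene; grey bars are gene spans. The 3 regions between Il4ra and Il21r lie outside both genes, whereas the Il2ra region lies within its gene.

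The remaining named genes had 1 peak in 1 list each. Ifnar1, a chain of the type I interferon receptor (ENSMUSG00000022967), had a peak over its start in replicate 2, on chromosome 16, 91485152 to 91485636. With a fold enrichment of 3.54 and a −log10 q of 1.22 it was near the end of that list, at a percentile of 4.85. Tyk2, the JAK that serves the type I interferon and IL-12 receptors (ENSMUSG00000032175), had a peak over its start in replicate 3, on chromosome 9, 21131111 to 21131334. Its fold enrichment was 5.26 and its percentile 57.7, above the list's median. Jak1 (ENSMUSG00000028530) had a weaker peak in replicate 3, on chromosome 4, 101254831 to 101255179, inside the gene and 10.0 kb downstream of its start. Fold enrichment there was 4.05, at a percentile of 16.0. Il12rb1, a chain of the IL-12 and IL-23 receptors (ENSMUSG00000000791), had a peak within the gene in replicate 2, on chromosome 8, 70811453 to 70811662, with a fold enrichment of 4.88 at a percentile of 54.8. A peak in 1 list has no second library behind it.

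As a group these were ordinary or weak peaks. Over the 16 peaks the percentile ran from 4.85 to 70.8 with a median of 42.5, against 50 for a whole list by construction. None reached the 75th percentile of its list, 7 were above percentile 50, and 2 were below percentile 10. List medians of fold enrichment were 5.10, 4.73 and 4.99, and the peaks of the 34 genes had medians of 4.53, 4.88 and 4.47 in replicates 1, 2 and 3. Only in replicate 2 was the median of these peaks above that of the list.

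**Figure D5:**
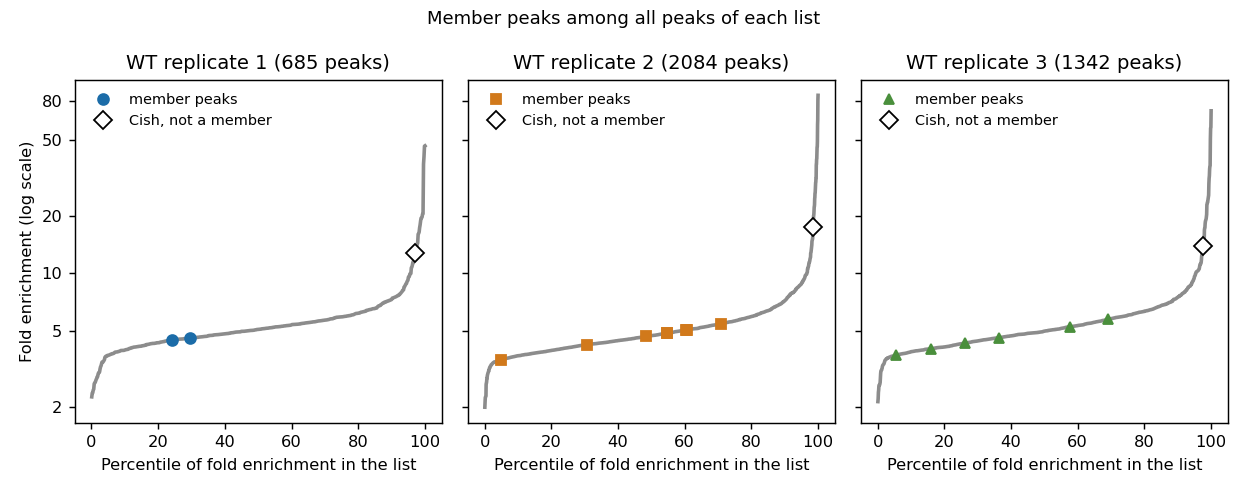
Fold enrichment (log scale, vertical axis) against its percentile (horizontal axis) for all peaks of each WT list (grey curve), with the peaks named for the 34 genes as coloured points and Cish as a diamond. The coloured points lie on the flat part of the curve, at percentiles of 4.85 to 70.8, while Cish lies on the steep end at 97.1 to 98.6.

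Of the 60 other pathway genes, 15 were named in any list (25.0%, interval 14.7 to 37.9), 7 in 2 or more (11.7%, 4.82 to 22.6) and 1 in all (1.67%, 0.0422 to 8.94). The shares of all protein-coding genes were 9.54%, 4.44% and 2.02%, so in all lists the share of these genes was near the background. The 7 were Il1rap, Ghr, Smad3, Tgfb1, Ptpn11, Cish and Socs1. Cish, a cytokine-induced inhibitor of JAK-STAT signalling, was the gene in all lists, with fold enrichments of 12.7, 17.6 and 13.8. Among the 26 peaks of these genes, 9 were at percentile 75 or above, and 0 of the 16 peaks of the 34 genes were. Peaks of 1 region in several lists count separately here: Cish gave 3 of the 9, and Ghr and Socs1 gave 2 each. The difference between the gene lists was not tested. Genes of the TGF-beta arm beside Tgfbr1 included the cytokine Tgfb1, with 2 regions in replicates 2 and 3, at 4.64 and 5.25 near its start and at 7.55 and 5.99 within the gene. Smad3, a signal carrier of the pathway, had a region 69 and 130 bp upstream of its start in replicates 1 and 3, at 5.28 and 5.33. Smad2 and Acvr2a had a peak in 1 list each, and Smad4, Smad7, Acvr1b and Bmpr1a were named in none.

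Position gave a partly different picture from the gene column. The RefSeq promoter table had a start for 28 of the 34 genes; Il15, Il2rb, Il12rb1, Il10ra, Il10rb and Tgfbr3 had no entry. Of the 28, 5 had a peak within 1 kb of a start (17.9%, interval 6.06 to 36.9), against 7.20% of 17492 protein-coding genes. In 2 or more lists the numbers were 2 of 28, or 7.14% (0.877 to 23.5), against 3.34%, and in all lists 1 of 28, or 3.57% (0.0904 to 18.3), against 1.53%. The interval held the background share in each case. Of the 15 peaks named for a gene with a known start, 7 were within 1 kb of it, and in the whole lists 47.6%, 41.9% and 50.4% of peaks were within 1 kb of some start.

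The fifth gene with a peak at its start was Stat2, which encodes the STAT that joins IRF9 in type I interferon signalling. This peak, on chromosome 10, 128270163 to 128270496 in replicate 2, ended 2 bp before the Stat2 start, and the authors' column gives it to Apof, whose RefSeq span overlaps it. Fold enrichment was 3.90 with a −log10 q of 1.56, at a percentile of 17.6. As at Ifnar1 and Tyk2, the peak at this start was in 1 list and had no partner in the others.

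Further regions lay near the 34 genes and carry other names. Within 50 kb of the gene span, 14 of the 34 genes had a region in any list, or 41.2% (interval 24.6 to 59.3), against 24.1% of protein-coding genes. In 2 or more lists it was 7, or 20.6% (8.7 to 37.9), against 12.2%, which lies within the interval. One region in all lists lay near Stat6, the STAT of IL-4 signalling. It was on chromosome 10, 127666597 to 127668988, from 5.61 kb past the end of Stat6, and is named for Nab2 and Nemp1. Its fold enrichments were 4.46, 5.44 and 5.06 in replicates 1, 2 and 3.

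Near Jak1, 26.8 kb upstream, a region in replicates 2 and 3 had 4.37 and 5.23 and is named for the noncoding gene Gm12796. Upstream of Tgfbr1, 2 regions named for Col15a1 lay 33.1 to 33.2 kb and 49.4 to 50.4 kb from the start. Fold enrichment at the nearer was 5.58 and 5.07 in replicates 2 and 3, and at the farther 5.91, 5.22 and 4.47 in replicates 1, 2 and 3. Both were therefore stronger than the promoter region of Tgfbr1 in each list that held them.

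In replicate 2 alone, a peak lay 4.52 kb upstream of Jak3, the JAK that binds the common gamma chain, with a fold enrichment of 5.78 at a percentile of 77.2; the authors' column names Unc13a, which it overlaps. Another lay 0.452 kb beyond the higher-coordinate end of Il2rb, with 3.75 at a percentile of 11.6, and is named for C1qtnf6. In the same list, stronger peaks named for Tmprss6 lay 29.2 and 31.2 kb from Il2rb. Their fold enrichments were 4.30 and 5.41, at percentiles of 33.3 and 69.9. Il2rb had no start entry, so it could not be counted among the genes with a peak within 1 kb of a start. Ifngr2 had its nearest peak 33.6 kb away, at 3.90. The other 20 genes without a peak by name had none within 50 kb in any list: Il15, Il2rg, Il15ra, Il7r, Il12rb2, Il18r1, Il18rap, Il1rl1, Il10ra, Il10rb, Il6st, Il6ra, Ifnar2, Tgfbr2, Tgfbr3, Jak2, Stat3, Stat4, Stat5a and Stat5b. The gene pairs Il18r1 and Il18rap, and Stat5a and Stat5b, which sit side by side in the genome, were thus both without a listed site.

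Stricter settings left fewer genes. At a −log10 q of 5 or more, Il21r was the 1 gene left in any list and in 2 or more lists, where 1.89% of all protein-coding genes had a region in 2 or more. With each list reduced to its 685 strongest peaks, 4 genes were left in any list (Il2ra, Il21r, Tgfbr1 and Tyk2) and 1, Il21r, in 2. Those are 11.8% (interval 3.3 to 27.5) against 4.80% of all protein-coding genes, and 2.94% (0.0744 to 15.3) against 2.26%, and both intervals held the background. Replicate 1 has 685 peaks, so that list was not cut. Il2ra and Tgfbr1 were left through it alone, at percentiles of 29.5 and 24.2, and their peaks in the longer lists fell below the cut. Without replicate 2, Tgfbr1 was the 1 gene with a shared region, and without replicate 3 these were Il2ra and Tgfbr1.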

How the data were processed

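The data are 3 peak lists of Ikaros ChIP-seq, 1 per WT library. MACS2, Subread, Picard, SAMtools, edgeR 3.20.0 and the build mm10 are named in the submitters' processing notes without roles; for the control library and thresholds, nothing is given in the sources used here. Columns made by the authors, per the file headers, are a fold enrichment per peak (a linear ratio), −log10 p and q values, a gene name and a distance. The deposited score is 10 times −log10 q without its decimals. The lists hold no read counts, so depth is unknown.

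Rows were reduced to 1 per peak, and peaks sharing 1 base were merged into 2526 regions. A gene had a region in 2 lists where peaks of both were in 1 region naming it. Gene spans and starts came from RefSeq tables of GRCm38.p6; 97.1% of 2145 protein-coding names matched. Exons and introns were not assigned, and no promoter bases inside a protein-coding gene span are printed. Deposited starts may be off by 1 base.

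The 34 genes and the other lists were chosen with earlier results of these data known. All 34 are accounted for. Other pathway genes are named where a region was in 2 or more lists, and Smad2, Smad4, Smad7, Acvr2a, Acvr1b and Bmpr1a are named besides. No group had a comparison, so no test was run. Alternatives were assignment by position, stricter q, equal list lengths, a distance limit, 50% reciprocal overlap, ranks by −log10 p, and leaving out each replicate. Merging was tested on simulated data. Python 3.11.15, pandas 2.3.3, NumPy 2.4.6, SciPy 1.17.1 and matplotlib 3.10.9 were used.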

Additional observations from a re-analysis of the deposited data

How the results depend on the processing

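No paired analysis was possible because only WT lists were used, which leaves no groups to pair. At a −log10 q of 5 or more, genes in any list, in 2 or more and in all lists numbered 1, 1 and 0, against 9, 5 and 1; with equal list lengths they numbered 4, 1 and 0. Both alternatives leave fewer peaks by construction, and the shares of all protein-coding genes fell too, from 9.54% in any list to 3.77% and 4.80%. Leaving out 1 replicate gave 7 to 9 genes in any list and 1 to 4 in 2 lists. A peak within 1 kb of a start, chosen after seeing the data, gave 5, 2 and 1. Assignment by position to all RefSeq genes gave 10, 5 and 1, adding Il2rb; with protein-coding genes alone, chosen after seeing the data, Jak1 was also in 2 lists. The distance limit and the 50% overlap changed no count. Ranked by −log10 p, the median percentile was 40.4 against 42.5, and 13 of 16 peaks moved by under 10 percentile points. Depth is unknown, so a missing peak cannot be told from a shallow library.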
